A study of Mus musculus with 6 samples.

Results

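Osteopontin, TREM2 and their partners in the lipid-associated programme of macrophages were followed through a high-salt culture. The 10 genes (Spp1, Gpnmb, Trem2, Tyrobp, Fabp4, Fabp5, Lpl, Cd9, Lgals3 and Plin2) were taken by symbol from the table of 15903 genes that had a total count of at least 10, and all 10 were in it. They had been chosen by name with the fold changes of NaCl against control in these libraries known, so their differences between the groups are a description and carry no test. RNA was measured in bone-marrow-derived macrophages (BMDMs), which M-CSF, a macrophage growth factor, raises from marrow cells, from 3 mice, with 1 unstimulated control library and 1 NaCl library per mouse. All libraries came from Cx3cr1GFP mice of the C57BL/6J strain, which carry GFP at the Cx3cr1 gene. Age and sex were not given. Marrow was cultured for 7 days in an RPMI medium with serum, penicillin and streptomycin and 10 ng/ml M-CSF, and for the NaCl group the salt was then raised by 62 mM over 24 h. Only adherent cells were collected, and the handling of the control cells during these hours was not described separately.

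Macrophages that meet much lipid, in fatty tissue, in atherosclerotic vessels or around damaged myelin, share a set of transcripts known as the lipid-associated or disease-associated programme. TREM2 is a surface receptor for lipids and lipoproteins that signals through the adaptor TYROBP (DAP12), and it is required for much of this programme in microglia and in fat tissue. Its typical members include secreted osteopontin (Spp1), the membrane glycoprotein GPNMB, the lipase Lpl, the fatty acid-binding proteins, the lipid droplet coat protein perilipin 2 (Plin2), the tetraspanin Cd9 and galectin-3 (Lgals3).

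The 250 bases before the first annotated start of Spp1, Gpnmb and Trem2 are shown from RefSeq on GRCm38.p6, all on the plus strand. Spp1 had the largest difference, Gpnmb had a high level but little difference, and Trem2 is the receptor gene. RefSeq entries of this kind were matched for 6 of the 10 genes. Spp1 has 2 annotated starts, and the window of the first lies at chr5:104434861-104435110. That of Gpnmb lies at chr6:49036268-49036517, and that of Trem2 at chr17:48346151-48346400. Capitals mark matches to the motifs described after them.
Spp1: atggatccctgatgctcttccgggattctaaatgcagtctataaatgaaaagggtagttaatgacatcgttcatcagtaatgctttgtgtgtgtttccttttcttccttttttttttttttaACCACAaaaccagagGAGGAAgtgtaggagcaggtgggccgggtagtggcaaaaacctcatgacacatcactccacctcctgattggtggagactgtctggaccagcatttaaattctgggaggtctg
Gpnmb: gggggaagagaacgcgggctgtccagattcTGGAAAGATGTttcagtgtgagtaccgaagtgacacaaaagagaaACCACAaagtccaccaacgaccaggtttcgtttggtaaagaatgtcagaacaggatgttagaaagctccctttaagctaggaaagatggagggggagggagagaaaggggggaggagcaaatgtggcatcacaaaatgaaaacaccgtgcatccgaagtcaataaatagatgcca
Trem2: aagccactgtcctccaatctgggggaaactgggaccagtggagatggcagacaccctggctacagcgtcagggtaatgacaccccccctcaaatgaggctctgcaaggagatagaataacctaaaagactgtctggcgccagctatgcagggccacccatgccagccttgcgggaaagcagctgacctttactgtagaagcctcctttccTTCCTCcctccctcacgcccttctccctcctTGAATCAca
Each window was searched on both strands for 6 motifs: the RUNX core TGTGGT, the PU.1 core GAGGAA, the AP-1 site TGANTCA, the M-box CATGTG of MITF and TFE factors, the E-box CACGTG, and the TonE site of NFAT5, the transcription factor of the osmotic response. In the Spp1 window, the RUNX core lay at -128 to -123 and the PU.1 core at -113 to -108, counted from the start site. In the Gpnmb window, the match to TonE lay at -220 to -210 and the RUNX core at -175 to -170. In the Trem2 window, the PU.1 core lay at -40 to -35 and the AP-1 site at -9 to -3. None of these matches overlapped another. Among 32851 windows of this length before all annotated starts, the PU.1 core was present in 23.3%, the RUNX core in 14.0%, the M-box in 12.3%, the AP-1 site in 6.75%, the E-box in 6.02% and TonE in 4.31%. A match is a description of the letters and not evidence of a bound site.

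The libraries held between 4088065 (NaCl, mouse 3) and 20123570 (control, mouse 3) counted reads. Expression is given in CPM, the reads of a gene per 1e6 reads counted, with library sizes scaled by the TMM method. The labelled cell type was checked against marker lists, which were also chosen with earlier results of these data known. All 9 macrophage markers were measured, with a summed level of 15090 to 17000 CPM in the control and 24020 to 31440 CPM in the NaCl libraries, most of it from Lyz2. Cd14 and Lyz2 rose without the replicate block (the mouse as a term in the model), and with it Csf1r rose too and Mertk and Mrc1 fell. Of 9 adipocyte markers, which matter here because Fabp4, Lpl and Plin2 are also fat cell genes, 6 had no read at all (Adipoq, Plin1, Lep, Cfd, Retn and Adrb3). Only Plin4 was tested, at 0.335 CPM at most, and Cidec and Pck1 had 5 and 1 reads in all. Osteoblasts also make osteopontin. Of their 11 markers, 3 were tested, with a sum of 14.0 to 19.0 CPM in the control and 16.6 to 24.2 CPM in the NaCl libraries. Most of it came from Runx2 (means of 14.4 and 18.7 CPM), and Bglap2, Ibsp and Alpl had no read. Osteoclast markers summed to 662 to 777 CPM in the control and 536 to 687 CPM in the NaCl libraries, with 7 of 9 tested and Calcr without a read. Most of this sum came from Atp6v0d2 (means of 504 and 362 CPM). The sums of dendritic cell (786 to 992 against 747 to 1028 CPM), neutrophil (247 to 539 against 268 to 390 CPM) and monocyte markers (181 to 321 against 153 to 366 CPM) overlapped between control and NaCl libraries. Of the B cell and the erythroid markers, 1 of 4 was tested in each list, at less than 1 CPM. Nearly all of the dendritic cell sum came from Itgax (means of 877 and 870 CPM), which is also listed below with the lipid-associated programme. With the block, the neutrophil markers Mpo (log2 fold change -0.73, edgeR adjusted p = 0.024) and Ngp (-0.56, adjusted p = 0.019) fell and the monocyte marker F13a1 rose (0.57, adjusted p = 0.039). In mouse 1, Ngp and F13a1 went the other way (log2 ratios of 0.07 and -0.19). DESeq2 with the block called none of them (adjusted p of 0.14 for Mpo, 0.066 for Ngp and 0.52 for F13a1). All were named after their values were seen, and their part in the levels of the 10 genes was not tested. In bulk RNA, a change in the number of cells of a type and a change in RNA per cell cannot be told apart.

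The 10 genes covered a wide range of levels. Per kilobase of the longest protein-coding transcript, Spp1 was the most abundant in control cells, at 5273 ± 1867 CPM per kb (SD, n = 3). Lgals3 (3148 ± 104), Gpnmb (2914 ± 343) and Lpl (2495 ± 317 CPM per kb) followed, and the ranges of neighbours in this order overlapped from Spp1 to Lpl. Tyrobp (1481 ± 39.7), Trem2 (1074 ± 39.9), Plin2 (670 ± 130), Cd9 (423 ± 65.9), Fabp5 (247 ± 34.04) and Fabp4 (77.5 ± 10.7 CPM per kb) came below, and the control ranges of neighbours from Lpl downwards did not overlap. This order depends on the division by length. In CPM, the control means of Gpnmb (10790) and Lpl (10270) lay above that of Spp1 (7947). Among all genes with a length, Spp1 ranked between 3 and 8 in the control libraries and between 2 and 3 in the NaCl libraries. Gpnmb ranked between 10 and 12 in the control and between 8 and 11 in the NaCl libraries.

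Spp1 (ENSMUSG00000029304, chr5:104435118-104441050, plus strand, in GENCODE M21 on GRCm38) encodes osteopontin, a secreted phosphoprotein that binds integrins and CD44. It stood at 4813, 10260 and 8771 CPM in the control libraries of mice 1, 2 and 3 and at 9627, 24070 and 15340 CPM in their NaCl libraries. Every NaCl library lay above the control library of its own mouse, but the groups overlapped, because the NaCl library of mouse 1 lay below the control library of mouse 2. The means were 7947 ± 2814 CPM in control and 16350 ± 7274 CPM in NaCl cells (SD, n = 3), a log2 fold change of 1.04 with a standard error of 0.34 when the mice were not matched. The ratio of NaCl to control was 2.00, 2.35 and 1.75 within mice 1, 2 and 3. In an edgeR model that includes the mouse as a replicate block, and so compares the libraries of each mouse with each other, the fold was 2.02 (95% interval 1.69 to 2.41), and the standard error on the log2 scale fell to 0.13. Intervals from edgeR, here and below, draw on the variance of all genes and not on the 3 mice alone. In the blocked fit Spp1 passed the threshold of 0.05 on the adjusted p over all genes. Without the block, at the same minimum total count of 10, it did not pass in edgeR, whereas it passed in DESeq2 and in edgeR at a minimum total count of 1. With the block and each mouse left out in turn, the log2 fold change stayed between 0.91 and 1.12 and past the threshold. Without the block, it moved between 0.66 without the NaCl library of mouse 2 and 1.31 without that of mouse 1. Of the Spp1 exonic bases, 18.8% are shared with the same-strand gene Gm42793, and reads from that stretch cannot be assigned to either gene.

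**Figure D1:**
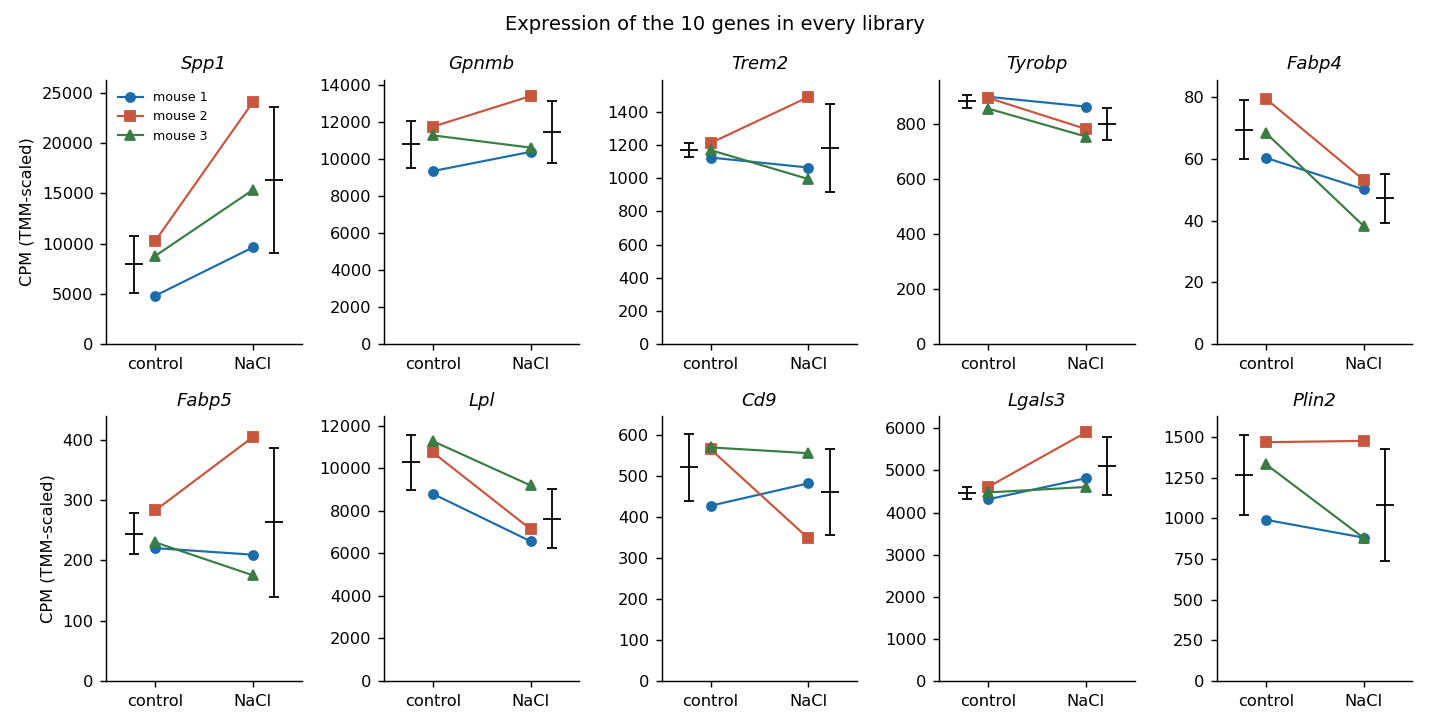
Expression of the 10 genes in CPM (TMM-scaled, linear axes from 0) in the control and NaCl library of each mouse, with lines joining the libraries of 1 mouse and horizontal bars with whiskers at the group mean ± SD (n = 3). For Spp1 all 3 lines go up, from 4813 to 10260 CPM in control to 9627 to 24070 CPM in NaCl libraries, for Lpl and Fabp4 all 3 descend, and for Trem2, Fabp5, Gpnmb, Cd9 and Plin2 they run in different directions.

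The receptor genes stood at similar levels in both groups. Trem2 (ENSMUSG00000023992, chr17:48346401-48354147) was measured at 1124, 1211 and 1169 CPM in control and at 1064, 1488 and 995 CPM in NaCl libraries of mice 1, 2 and 3. The control libraries were close together, with an SD of 43.4 around 1168 CPM, and the NaCl libraries lay on both sides of them, with an SD of 267 around 1182 CPM. The blocked fold was 0.997 (95% interval 0.835 to 1.19). Tyrobp (ENSMUSG00000030579, chr7:30413760-30417585), the adaptor through which TREM2 and several related receptors signal, stood at 900, 896 and 857 CPM in control and at 864, 783 and 755 CPM in NaCl libraries. It was lower in each of the 3 mice, with a blocked fold of 0.904 (95% interval 0.766 to 1.07), and the groups overlapped. Gpnmb (ENSMUSG00000029816, chr6:49036546-49070929), a transmembrane glycoprotein of lysosome-rich and lipid-laden macrophages, stood at 9343, 11740 and 11270 CPM in control and at 10380, 13390 and 10610 CPM in NaCl libraries. It was higher in mice 1 and 2 and lower in mouse 3, with a blocked fold of 1.06 (95% interval 0.891 to 1.26). Per kilobase of the longest transcript, the control levels of Spp1 (3194 to 6806 CPM per kb) lay just above those of Gpnmb (2524 to 3172 CPM per kb). In CPM, without this division, Gpnmb lay above Spp1 in the control library of each mouse. The interval of the fold lay above 1 for Spp1 and included 1 for Gpnmb.

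The genes of lipid uptake and storage differed among themselves. Lpl (ENSMUSG00000015568, chr8:68880491-68907448), the secreted lipase that releases fatty acids from lipoprotein triglycerides, stood at 8793, 10740 and 11270 CPM in control and at 6563, 7134 and 9188 CPM in NaCl libraries of mice 1, 2 and 3. It was lower with NaCl in every mouse, at ratios of 0.746, 0.664 and 0.816, although the NaCl library of mouse 3 lay above the control library of mouse 1. The means were 10270 ± 1303 and 7628 ± 1381 CPM (SD, n = 3), the log2 fold change was -0.43 with a standard error of 0.17 without the block, and the blocked fold was 0.739 (95% interval 0.621 to 0.880). Lpl passed the threshold only with the block, and no longer when mouse 1 or mouse 3 was left out of that fit (log2 fold changes of -0.43 and -0.50).

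Fabp4 (ENSMUSG00000062515, chr3:10204088-10208576), a carrier of fatty acids in the cytosol of fat cells and macrophages, stood at 60.4, 79.5 and 68.5 CPM in control and at 50.2, 53.2 and 38.3 CPM in NaCl libraries. It was the only one of the 10 genes whose groups did not overlap, a separation that 10.1% of all genes showed in this direction. Its ratios of NaCl to control were 0.832, 0.670 and 0.561 in mice 1, 2 and 3, and the blocked fold was 0.682 (95% interval 0.568 to 0.819). Fabp4 too passed the threshold with the block and, at a minimum total count of 10, not without it, although it passed without the block at a minimum of 1. With the block it no longer passed when mouse 3, which holds the smallest library, was left out (log2 fold change -0.42). Its relative Fabp5 (ENSMUSG00000027533, chr3:10012548-10016607), also on chromosome 3, stood at 220, 283 and 230 CPM in control and at 209, 404 and 175 CPM in NaCl libraries. The ratios of Fabp5 were 0.950, 1.43 and 0.762, in other words higher in mouse 2 only, and the blocked fold was 1.02 (95% interval 0.836 to 1.23).

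Plin2 (ENSMUSG00000028494, chr4:86648386-86670060), which coats lipid droplets, stood at 991, 1469 and 1334 CPM in control and at 882, 1477 and 880 CPM in NaCl libraries. It was about equal in the libraries of mouse 2 and lower with NaCl in mice 1 and 3, with a blocked fold of 0.839 (95% interval 0.700 to 1.01). Plin2 passed the threshold in 1 of the fits run, the blocked fit without mouse 2, with a log2 fold change of -0.37.

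Of the surface and lectin genes, Cd9 (ENSMUSG00000030342, chr6:125460266-125494791), a tetraspanin that organises membrane proteins and exosomes, stood at 427, 565 and 569 CPM in control and at 481, 348 and 555 CPM in NaCl libraries. Its ratios were 1.13, 0.616 and 0.975, so the spread between the mice was larger than their mean difference, and the blocked fold was 0.878 (95% interval 0.723 to 1.07). Cd9 shares 10.7% of its exonic bases with the opposite-strand gene Gm26728, and the reads carry no strand information. Lgals3 (ENSMUSG00000050335, chr14:47367751-47386160), galectin-3, a sugar-binding lectin that is secreted and also marks damaged lysosomes, stood at 4315, 4608 and 4478 CPM in control and at 4816, 5905 and 4608 CPM in NaCl libraries. It was higher with NaCl in each mouse, by ratios of 1.12, 1.28 and 1.03, and the blocked fold was 1.14 (95% interval 0.957 to 1.35).

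**Figure D2:**
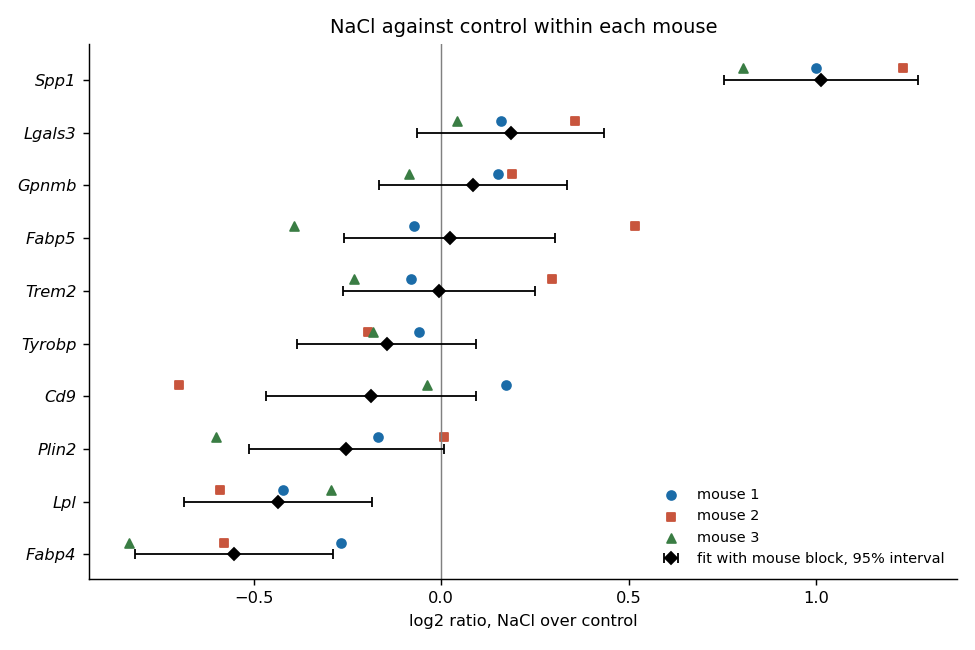
Log2 ratio of NaCl to control for each of the 10 genes within mouse 1, 2 and 3 (coloured symbols) and the log2 fold change of the edgeR fit with the mouse as a block with its 95% interval (black), genes ordered by that value. Spp1 lies at 0.81 to 1.23 in the 3 mice, Lpl and Fabp4 lie below 0 with intervals that do not reach it, and the intervals of the other 7 genes include 0.

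The 10 genes differed from control in both directions. Their median log2 fold change was -0.06 (-0.08 with the block), against -0.01 (-0.02 with the block) over all 15903 genes, and 2 were higher and 3 lower in all 3 mice, against 20.1% and 23.4% of all genes. Without the block, none of the 10 passed the threshold in edgeR at a minimum total count of 10, where 0.478% of all genes were called higher, 0.176% lower and 0.654% in either direction, and 3 had an unadjusted p under 0.05 (12.6% of all genes). DESeq2, the tool of the study, called Spp1 higher and no other of the 10, against 1.54% of all genes called higher and 2.52% in either direction. DESeq2 with the block called the same 3 as edgeR with the block, where 5.07% of all genes were called. With the block, edgeR called 1 of the 10 higher (Spp1) and 2 lower (Fabp4 and Lpl), against 4.60% and 4.30% of all genes. Because the genes were chosen with this contrast known, nothing is read from these counts.

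The mice also differed in the level of some of these genes, a difference on which the choice of genes did not rest. It was tested with the mouse term of the blocked edgeR fit, a test added after the data had been seen. The term passed the threshold for 3 of the 10 genes and for 8.89% of all genes. Spp1 was highest in mouse 2 and lowest in mouse 1, with mean levels over both libraries of 17160 and 7220 CPM, a ratio of 2.38 (edgeR mouse term, adjusted p = 1.9e-05). Fabp5 differed 1.70-fold between mouse 2 and mouse 3 over both libraries (adjusted p = 0.0039), with 283 against 230 CPM in control and 404 against 175 CPM in NaCl libraries, and Plin2 1.57-fold between mouse 2 and mouse 1 (adjusted p = 0.014). Mouse 2 also had the highest level of Gpnmb, Trem2, Fabp4 and Lgals3, for which the mouse term did not pass. For Spp1, the ratio of 2.38 is that of the highest to the lowest of the 3 mice. The blocked fold of 2.02 between treatments is taken over all 3, so the sizes of these unlike measures are not compared. Whether the difference between mice came from the animals or from their separate cultures cannot be told apart, since each mouse gave 1 culture per condition.

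Genes that work with the 10 were listed by function, with earlier results of these data known, so their calls too are a description. They were 150 in all apart from the 10 genes, of which 126 were tested. Without the block, 1 of them rose and 1 fell, against 0.478% and 0.176% of all genes. With the block, 11 rose and 16 fell, where 4.6% of all genes were called higher, 4.3% lower and 8.9% in either direction. The median log2 fold change of the 126 genes was -0.09, and with the block -0.10. When each mouse was left out of the fit with the block, 14 of the 27 calls held in all 3 fits, among them those of Itga9, Tspan13, Tspan33, Csf1, Lyz2, Ank, Ch25h, Serpine2, Cd36, Cx3cr1, Csf1r, Txnip and Cebpb. Of the other 13, Cd44, Atp6v0d2 and Bhlhe41 lost the call only without mouse 1 (adjusted p of 0.084, 0.13 and 0.20), and the calls of Itgb1, Itgb3, Fabp7, Lipe, Mgll, Hilpda, Lgals8, Ctsd, Tmem119 and Ppard were lost in 2 or 3 of these fits, with adjusted p up to 0.44. All p-values named from here on are adjusted over all genes in edgeR at a minimum total count of 10, with the block unless stated, and calls without the block are those of that filter.

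Of 10 receptors and receptor subunits for osteopontin, none rose and 4 fell with the block, against 4.6% and 4.3% of all genes. Without the block none passed in edgeR at a minimum total count of 10, whereas Itga9 and Cd44 passed in DESeq2 and at a minimum of 1. CD44, the hyaluronan receptor that also binds osteopontin, fell from 538 ± 6.55 to 372 ± 46.7 CPM (log2 fold change -0.54, SE 0.12, adjusted p = 0.0037). The integrin subunits Itga9 (-0.88, SE 0.16, adjusted p = 0.00064), Itgb3 (-0.64, SE 0.18, adjusted p = 0.020) and Itgb1 (-0.41, SE 0.13, adjusted p = 0.036) fell as well, and Itgb1, at 822 ± 54.1 CPM in control cells, was the most abundant of the list. In these 4 genes every NaCl library lay below every control library, as in 10.1% of all genes, whereas Spp1 was higher with NaCl in each mouse. Bone sialoprotein (Ibsp), Dmp1, Dspp and Mepe, the relatives of osteopontin in its gene cluster, had no read in any library.

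The genes around TREM2 gave no call in either direction. With the block 8.9% of all genes were called, and without it 0.654%. Lists this short would hold few calls at those shares, so nothing is read from their absence. None of 14 receptors that pair with TYROBP passed with or without the block. Without the block, 10 of the 14 had a positive log2 fold change, as had 7820 of all 15903 genes. Cd300lb, the most abundant of them, stood at 340 ± 53.9 and 436 ± 39.6 CPM (0.37, SE 0.12, adjusted p = 0.064). None of 11 genes of signalling downstream of TYROBP and of TREM2 shedding passed either. The lipid phosphatase Inpp5d, the most abundant of these, stood at 367 ± 16.7 and 342 ± 25.2 CPM. Of 3 tested genes for TREM2 ligands, none passed, and apolipoprotein E (Apoe) stood at 2457 ± 202 and 2778 ± 553 CPM.

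Lipid handling genes showed few calls, in both directions. Of 14 tested partners of Lpl and lipases, 1 rose and 2 fell with the block, against 4.6% and 4.3% of all genes. Lipe, hormone-sensitive lipase, rose from 14.6 ± 3.76 to 20.5 ± 1.61 CPM (0.52, SE 0.16, adjusted p = 0.047). Mgll, the lipase of monoglycerides, fell (-0.68, SE 0.21, adjusted p = 0.039), as did Hilpda, an inhibitor of lipolysis (-0.64, SE 0.18, adjusted p = 0.022). The lysosomal acid lipase Lipa, the most abundant, stood at 2483 ± 142 and 2437 ± 265 CPM, and Gpihbp1, the anchor of Lpl on capillary endothelium, had no read. None of 9 tested perilipin and lipid droplet genes passed. Their most abundant, Soat1, which esterifies cholesterol, stood at 502 ± 10.7 and 402 ± 53.0 CPM (adjusted p = 0.087). Of the other fatty acid-binding proteins, 2 of 8 were tested, and Fabp7 rose with the block (0.41, SE 0.13, adjusted p = 0.049). Fabp7 ranged between mice from 14.9 CPM in the control library of mouse 1 to 96.8 CPM in that of mouse 3.

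The 5 tested genes of the galectin list, which are galectins other than Lgals3 and the galectin-3-binding protein Lgals3bp, and of which Lgals4 had only 47 reads in all, were lower with NaCl in each of the 3 mice, as 23.4% of all genes were, whereas Lgals3 was higher in each of them. Of the 5, Lgals8 fell with the block (-0.37, SE 0.12, adjusted p = 0.047). Galectin-1 (Lgals1), the most abundant, stood at 865 ± 59.2 and 716 ± 163 CPM (-0.29, SE 0.12, adjusted p = 0.14). Of 14 tetraspanins, none rose and 2 fell with the block, against 4.6% and 4.3% of all genes. The 2 were Tspan33 (-0.94, SE 0.19, adjusted p = 0.0020) and Tspan13 (-0.59, SE 0.14, adjusted p = 0.0053). Cd63, a tetraspanin of late endosomes, was the most abundant, at 700 ± 46.6 and 783 ± 139 CPM, and 17.3% of its 75-base windows also occur in Cd63-ps.

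Among 25 other genes of the lipid-associated and disease-associated programmes, 1 rose and 1 fell without the block, and 3 rose and 5 fell with it. With the block, 4.6% of all genes were called higher and 4.3% lower, and without it 0.478% and 0.176%. Lyz2, lysozyme, stood at 10040, 10190 and 9219 CPM in control and at 16460, 23250 and 17740 CPM in NaCl libraries of mice 1, 2 and 3. Its groups did not overlap, as in 8.92% of all genes in this direction. It rose with a log2 fold change of 0.96 (SE 0.17, adjusted p = 0.042 without the block). Without the block, the call was lost in 5 of the 6 fits that left out 1 library (adjusted p 0.066 to 0.30) and kept without the NaCl library of mouse 1. Of its 75-base windows, 5.96% also occur in Lyz1. Serpine2, a protease inhibitor, fell from 10.2 ± 0.717 to 3.79 ± 1.23 CPM (-1.36, SE 0.25, adjusted p = 0.047 without the block), a call that none of the 6 fits without 1 library kept (adjusted p 0.054 to 0.30). With the block, Ank, a membrane transporter of phosphate metabolism, rose from 157 ± 37.2 to 289 ± 122 CPM (0.81, SE 0.14, adjusted p = 0.00038). Ch25h, which makes the oxysterol 25-hydroxycholesterol, rose too, but from a low level, with 0, 1.09 and 1.56 CPM in control and 1.23, 6.89 and 3.83 CPM in NaCl libraries (adjusted p = 0.00049).

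Cd36, the scavenger receptor for oxidised lipoproteins and fatty acids, fell with the block from 5424 ± 419 to 3140 ± 840 CPM (-0.82, SE 0.14, adjusted p = 0.00031). Its groups did not overlap, as in 10.1% of all genes in this direction. Csf1, the gene of M-CSF itself, fell from 8.51 ± 0.379 to 3.64 ± 1.22 CPM (-1.29, SE 0.22, adjusted p = 0.00034). The 2 remaining falls of this list were Ctsd (cathepsin D, -0.41, adjusted p = 0.043) and Atp6v0d2 (a subunit of the proton pump, -0.49, adjusted p = 0.0080), named after their values were seen. Atp6v0d2 is also an osteoclast marker. Of the 7 osteoclast markers tested, 2 rose and 1 (Atp6v0d2) fell with the block, against 4.6% and 4.3% of all genes. Ctsk (cathepsin K) rose from 15.98 ± 1.41 to 43.6 ± 7.57 CPM (1.44, adjusted p = 5e-08, and 0.0077 without the block). Acp5 rose with the block (0.62, adjusted p = 0.013), but DESeq2 with the block did not call it (adjusted p = 0.072). Both were also named after their values were seen. The other 4 did not pass, at log2 fold changes of 0.33 (Nfatc1), 0.21 (Dcstamp), -0.15 (Ocstamp) and -0.05 (Mmp9). The part of osteoclast-type cells in the level of Spp1 was not tested.

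**Figure D3:**
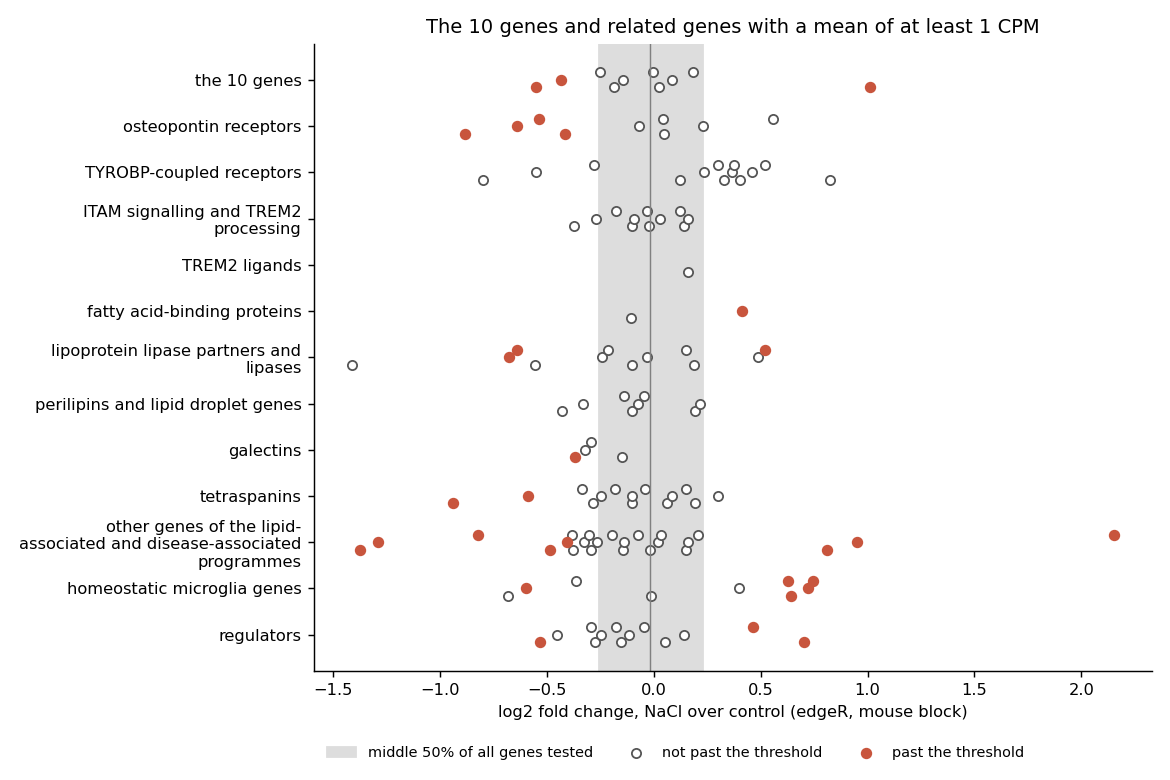
Log2 fold change of NaCl over control in the edgeR fit with the mouse as a block, for the 10 genes and for every related gene with a mean of at least 1 CPM, by list. Filled points passed the threshold of 0.05 on the adjusted p over all genes, open points did not, and the grey band holds the middle 50% of all genes tested. The osteopontin receptors have 4 filled points left of 0, the TYROBP-coupled receptors and the signalling list have none, and the homeostatic genes have 4 to the right.

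Of 9 tested genes that microglia express at rest and lose as they take up the disease-associated programme, 4 rose with the block. Of all genes, 4.6% were called higher in that fit. Csf1r, the receptor of M-CSF, rose from 2083 ± 148 to 3443 ± 369 CPM (0.72, SE 0.12, adjusted p = 0.00030, and 0.052 without the block). Its groups did not overlap, as in 8.92% of all genes in this direction. Cx3cr1, the fractalkine receptor, rose from 89.6 ± 19.8 to 148 ± 13.2 CPM (0.74, SE 0.12, adjusted p = 0.00014), at a locus that carries GFP in these mice. Txnip (0.64, SE 0.12, adjusted p = 0.00069) rose as well, as did Tmem119, at a mean of only 5.82 and 8.81 CPM (0.63, SE 0.20, adjusted p = 0.049). Of the 75-base windows of Csf1r and Txnip, 15.9% and 16.3% also occur in other genes.

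Of 13 tested regulators of these programmes, 2 rose and 1 fell with the block, against 4.6% and 4.3% of all genes. Cebpb, a transcription factor of the macrophage lineage, rose from 49.8 ± 11.7 to 81.1 ± 23.2 CPM (0.70, SE 0.13, adjusted p = 0.00073), with 16.7% of its windows also in Tmem189. Bhlhe41 rose (0.47, SE 0.12, adjusted p = 0.015), and Ppard, a nuclear receptor for fatty acids, fell (-0.53, SE 0.15, adjusted p = 0.020). Cebpa, the most abundant of the list, stood at 206 ± 39.5 and 180 ± 9.31 CPM.

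**Figure D4:**
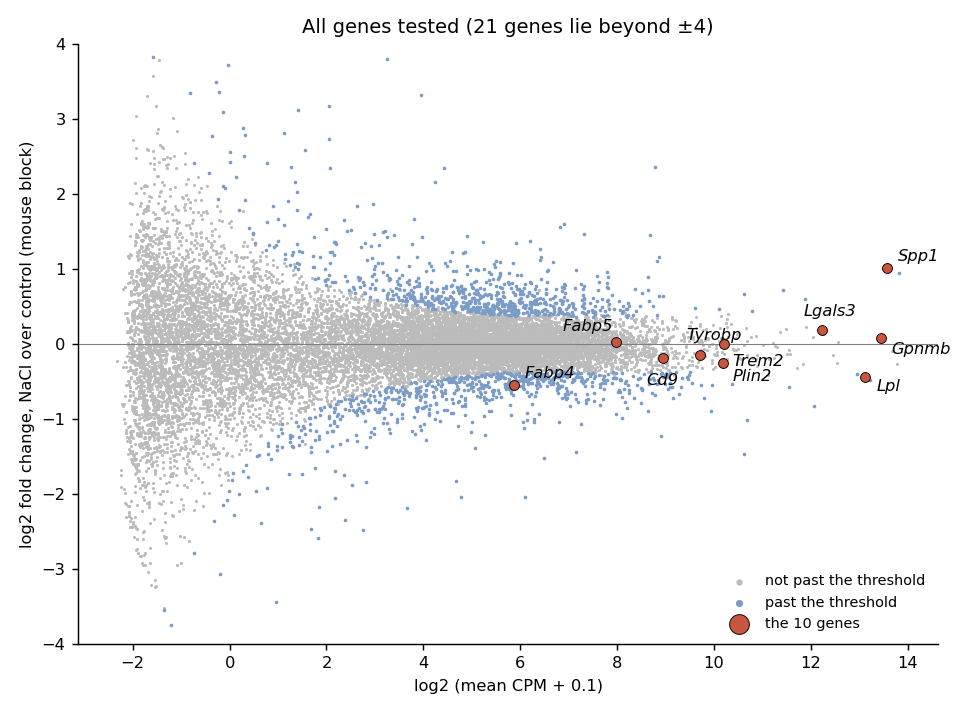
Log2 fold change of NaCl over control in the edgeR fit with the mouse as a block against log2 of the mean CPM plus 0.1, for all 15903 genes, with genes past the threshold in blue, the 10 genes in red and the 21 genes beyond ±4 on the vertical axis left out. Spp1, Gpnmb, Lpl and Lgals3 lie at the right edge among the most abundant transcripts, at log2 fold changes of 1.01, 0.09, -0.44 and 0.19, and Fabp4 lies lowest, at -0.55.

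The genes whose log2 CPM followed that of Spp1 most closely over the 6 libraries, among 8728 genes with a mean of at least 10 CPM, were Cdc45 (Pearson r = 0.997), Mto1 (0.996), Setd6 (0.995), Cep152 (0.994) and Pgs1 (0.993). With Gpnmb, these were Tmem208 (0.988), Nubp2 (0.987), Mrpl4 (0.985), Snap47 (0.985) and Npm3 (0.982). These coefficients are a description, since the 6 libraries share the treatment and the mice.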

How the data were processed

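The authors trimmed 75 bp single-end reads, which carry no strand information, with fastp 0.20.0 and counted them per gene with STAR 2.7.10b, and they deposited raw counts for 6 libraries. The normalized signal they deposited as well equalled these counts divided by DESeq2 size factors, and served only for gene symbols. They name mm10 as the genome but a GENCODE release (vM32) made for a later one. Positions, lengths and shared 75-base windows were therefore taken from GENCODE M21, in which all 10 genes were found.

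The quasi-likelihood test of edgeR 4.0.16 (glmQLFit, glmQLFTest) was applied to genes whose counts summed to 10 or more, with TMM scaling and no term but NaCl against control, as in the study's DESeq2 comparison, and with Benjamini-Hochberg adjustment over 15903 genes and a threshold of 0.05. Log2 CPM used a prior count of 2. Libraries ranged from 4088065 to 20123570 counts. The p-values and intervals of edgeR rest on the spread between cultures of 3 mice, drawn for each gene towards that of all genes. The blocked standard error was 0.14 for Cd9, whose ratios differed between the mice, and 0.12 for Tyrobp, whose ratios were alike. The labels give mice 1, 2 and 3 in both groups, so the samples were paired by mouse and the blocked fit is given beside results it changes. Same-mouse deviations from the group means correlated across genes (0.426, 0.151 and 0.217, other pairs -0.35 to 0.124). The deviations are centred within each group, so these correlations depend on each other and do not establish the pairing. The value for mouse 2 (0.151) was close to that of NaCl 2 with control 3 (0.124). The 10 genes and all lists were chosen with earlier results of these data known. Named were all 10 genes, and of each list every gene past the threshold without the block, the 4 largest changes past it only with the block, and the most abundant gene, with the 5 genes most correlated with Spp1 and with Gpnmb. DESeq2 1.42.0 and R 4.3.3 were used for the alternatives and Python 3.11.15 for the sequences and figures. The result of a listed gene is not reported here. The scripts were tested on simulated data.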

Additional observations from a re-analysis of the deposited data

How the results depend on the processing

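Leaving out each library without the replicate block called 0 of the 10 genes in either direction, as did the main comparison, filterByExpr, total count scaling, size factors by median ratio and thinning to 4088065 counts. The block called 1 higher and 2 lower, DESeq2 1 and 0, a minimum total count of 1 called 1 and 1, and both DESeq2 and thinning, each combined with the block, 1 and 2. Without mouse 1, 2 or 3, the block called 1 higher and 0 to 3 lower (3 without mouse 2, 0 without mouse 3). Of the related genes, 1 rose and 1 fell in the main comparison, 11 and 16 with the block, 3 and 6 with DESeq2, 7 and 8 with a minimum total count of 1, 8 and 10 with DESeq2 and the block, and 8 and 8 with thinning and the block. Total count scaling called 2 higher, and filterByExpr and thinning called 0 lower. Leaving out 1 library called 0 to 2 higher and 0 lower, and with the block, 8, 13 and 12 were higher and 11, 16 and 12 lower without mouse 1, 2 and 3. Over all genes, 76 were higher and 28 lower, against 732 and 684 with the block, 245 and 155 with DESeq2, 362 and 300 with a minimum total count of 1, 452 and 354 with DESeq2 and the block, 532 and 404 with thinning and the block, 8 to 123 higher and 0 to 46 lower without 1 library, and 469 to 758 higher and 417 to 661 lower with the block and without 1 mouse. The cause of these differences was not tested. Spp1 and Lgals3 stayed above 0 and Tyrobp, Fabp4, Lpl and Plin2 below 0 in all 18 alternatives, whereas Gpnmb, Trem2, Fabp5 and Cd9 changed sign in some. The NaCl library of mouse 3, with 4088065 counts, limits low genes most.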
